A study of Homo sapiens with 24 samples.

Results

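The genes described here belong to glycolysis, gluconeogenesis and the pentose phosphate pathway, with the carriers that bring glucose in and take lactate out. The 36 members were taken by symbol from a fixed list and matched through their Ensembl identifiers to the 39321 genes of the count table. They comprise 4 carriers, 22 genes of glycolysis, 4 of gluconeogenesis and 6 of the pentose phosphate pathway. The cells were A498 and 786-O, established lines of clear cell renal cell carcinoma (ccRCC), and polyadenylated RNA was sequenced from 24 libraries. Cells received a non-targeting siRNA pool (Cnsi) or a pool aimed at PD-L1 (PD-L1si), each used at 20 nM, and after 24 hours were kept without IFNγ or exposed to 50 ng/mL of it for another 24 hours. Each line thus has 4 groups of 3 libraries, with either siRNA alone (Cnsi or PD-L1si) or followed by IFNγ (Cnsi IFNγ or PD-L1si IFNγ). The account of RNA extraction names only 3 of the 4 groups and leaves out PD-L1si without IFNγ, so that its comparison rests on the sample labels. The labels call PD-L1si a knockout, whereas the treatment they describe is transient silencing. They also describe derivatives of both lines that carry Renilla luciferase, without saying whether these gave the RNA.

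Glycolysis splits glucose into pyruvate, which LDH enzymes convert to lactate. Gluconeogenesis runs toward glucose through its own enzymes at the irreversible steps, and the pentose phosphate pathway draws glucose 6-phosphate off to make NADPH and ribose. ccRCC is known for loss of VHL, which leaves hypoxia-inducible factors active and glycolytic genes high, and for low FBP1.

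Totals ran from 19256316 to 30350461 counts per library. Values below are CPM, counts scaled to library size with TMM within a line, and CPM per kb where genes are compared with each other. The log2 fold changes come with their standard error (SE) and an adjusted p-value from edgeR's quasi-likelihood test over all genes tested, 20916 for A498 and 21209 for 786-O. A gene is said to rise or fall when the adjusted p-value is under 0.05 and the log2 fold change is over 0.5 in size. The labels do not say that replicates are separate cultures, so the p-values measure the spread between libraries, which may be technical. The lines were sequenced on different instruments, so that line and instrument cannot be told apart. Which line is which rests on the labels and is uncertain, and the names are used as labelled. Were the labels exchanged, every signed difference between the lines would change sign. Among the 786-O libraries, some stood apart from the others of their group over all genes. The chi-square per degree of freedom was 16.4 and 12.1 for replicate 1 of Cnsi IFNγ against the others and 5.18 between these, 24.3 and 14.3 against 5.27 for replicate 1 of PD-L1si, and 10.1 and 11.6 against 1.97 for replicate 3 of Cnsi.

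CD274, which encodes PD-L1, followed the labels. In A498 it stood at 3.99, 5.49 and 5.74 CPM with Cnsi, 191, 199 and 191 with Cnsi IFNγ, 0.810, 1.01 and 0.926 with PD-L1si alone, and 26.9, 28.5 and 27.7 with PD-L1si IFNγ. In 786-O it stood at 3.87, 4.18 and 4.18 CPM with Cnsi, 55.7, 59.6 and 65.8 with Cnsi IFNγ, 1.46, 1.21 and 1.90 with PD-L1si alone, and 32.7, 30.8 and 30.6 with PD-L1si IFNγ. No library of a PD-L1si group reached the lowest library of the Cnsi group with the same IFNγ treatment. PD-L1 siRNA lowered CD274, with a log2 fold change of -2.47 ± 0.18 (SE, adjusted p = 6.46e-15) in A498 and -1.42 ± 0.15 (SE, adjusted p = 9.68e-08) in 786-O without IFNγ. Under IFNγ the values were -2.81 ± 0.06 and -0.94 ± 0.07, and CD274 with PD-L1si IFNγ still lay above the Cnsi libraries without IFNγ.

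The IFNγ treatment also showed in IRF1, a transcription factor that IFNγ induces, which rose with Cnsi by 4.62 ± 0.04 (SE, adjusted p = 1.02e-40) in A498 and 4.77 ± 0.05 (SE, adjusted p = 3.11e-28) in 786-O.

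The kidney lineage factor PAX8 was present in every library, at 1632 to 5012 counts in A498 and 5965 to 7069 in 786-O, as were VIM, KRT8 and KRT18. CA9, a hypoxia target typical of ccRCC, had only 15 to 63 counts in A498 and 206 to 916 in 786-O, and NDUFA4L2, another gene typical of ccRCC, had 19 to 98 and only 2 to 10. Markers of other cell types were at or near 0, with exceptions. PTPRC, common to leukocytes, had at most 1 count in A498 and 3 in 786-O. The endothelial marker CDH5 had at most 0 and 1, while PECAM1 reached 34 and KDR 14 counts in 786-O. Of the fibroblast markers LUM reached 264 and COL1A1 89 counts in A498, and the part of such cells in the results was not tested. In bulk RNA, fewer cells with a transcript and less of it per cell cannot be told apart. PAX2 and NNMT were at 0 in all 786-O libraries while counted in A498. They belong to 1475 genes at 0 in all 12 libraries labelled 786-O with over 1000 counts summed in A498, against 35 the other way round, and such genes are taken as not measured.

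Of the 36 members, 35 are in the count table, and PCK1 is not analysed here. SLC2A1, SLC16A1, SLC16A3, ALDOA, ENO3 and FBP1 were at 0 in all 786-O libraries and are not measured there. FBP1, the fructose bisphosphatase of gluconeogenesis, was too low to test in A498 as well. This left 34 members tested in A498 and 29 in 786-O. Of the members of gluconeogenesis only PC and PCK2 could be tested, and in 786-O only SLC2A3 among the carriers. PC and PCK2 act at the entry of gluconeogenesis, and FBP1 of its later step was not tested. FBP2, the muscle form of that enzyme, is among the other pathway genes. It was tested at a mean of only 0.345 CPM with Cnsi in A498 and 0.818 in 786-O, and was not called. SLC37A4 and G6PC3 of this branch, also among the other pathway genes, were tested in both lines. In A498 the mean of SLC37A4 was 60.2 CPM with Cnsi and 28.8 with Cnsi IFNγ, and 66.2 and 44.1 with PD-L1si. G6PC3 had 73.9 and 66.4 CPM, and 72.4 and 63.3.

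Some counts hold reads that cannot be assigned to a single gene. The kit and the counting are described as strand-specific, yet an antisense gene lying wholly within GAPDH exons had a count of its own as large as 41.7 to 44.5% of that of GAPDH in A498 and 48.4 to 49.8% in 786-O. The antisense gene within ALDOC had a count as large as 19.7 to 33.3% and 24.8 to 28.0% of that of ALDOC, and the one within ALDOA 34.9 to 54.0% in A498. Sense and antisense reads could not be told apart for these genes. The counting is described with the forward strand setting, while kits of this kind usually read the reverse strand. Whether reads were counted on the opposite strand was not tested, and the doubt bears on every count given here. ENO3, the muscle enolase, shares 111 exon bases with PFN1 on the opposite strand, and its count was 28.1 to 33.8% of that of PFN1 in every A498 library. Reads of SLC2A3 and its close copy SLC2A14, and of genes with many processed pseudogenes such as GAPDH, PGAM1, ENO1 and LDHA, may also be split.

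Other exons overlap as well, and reads in the shared bases were not separated. SLC16A3 shares 482 exon bases with CSNK1D on the opposite strand, whose count was 0.379 to 0.690 times that of SLC16A3 in A498. PFKM shares 516 with SENP1 on the opposite strand, at 0.266 to 0.655 times the PFKM count in A498 and 0.214 to 0.279 times in 786-O. PFKFB4 shares 298 with UCN2, which lies on the same strand and had 0.161 to 0.397 and 0.231 to 0.385 times its count. These are the whole counts of the partners, not shares of shared reads. PKLR, which is low, shares 556 bases with HCN3 on the opposite strand, whose count was 5.21 to 10.7 times that of PKLR in A498 and 6.33 to 9.88 times in 786-O. On the opposite strand PFKFB2 also overlaps YOD1 (0.791 to 1.40 times in A498 and 0.906 to 1.43 in 786-O) and RPE overlaps KANSL1L (at most 0.630 times and 0.502 times). LDHB shares 997 bases with a gene on its strand that had 0 counts on average in A498 and 0.667 in 786-O. SLC16A1, TPI1, PGK1, ENO1, PC and PGLS overlap genes with at most 0.244 times their counts.

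With Cnsi and no IFNγ, levels spread widely within each branch. In A498 the glycolysis genes ran from 0.331 CPM per kb for PKLR, the liver and red cell pyruvate kinase, to 2449 for GAPDH, with a median of 84.2. The pentose phosphate genes ran from 11.0 for RPIA to 165 for TKT (median 54.6), and the carriers from 22.6 for SLC2A3 to 560.1 for SLC2A1, which encodes GLUT1. In 786-O the glycolysis genes again ran from PKLR (0.579) to GAPDH (3728), with a median of 67.0 CPM per kb. The pentose phosphate genes of that line ran from 9.06 for RPIA to 651 for TKT, with a median of 179.6. Among the genes of gluconeogenesis PCK2 was above PC in A498 (33.9 and 9.09 CPM per kb) and below it in 786-O (5.73 and 18.7).

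**Figure D1:**
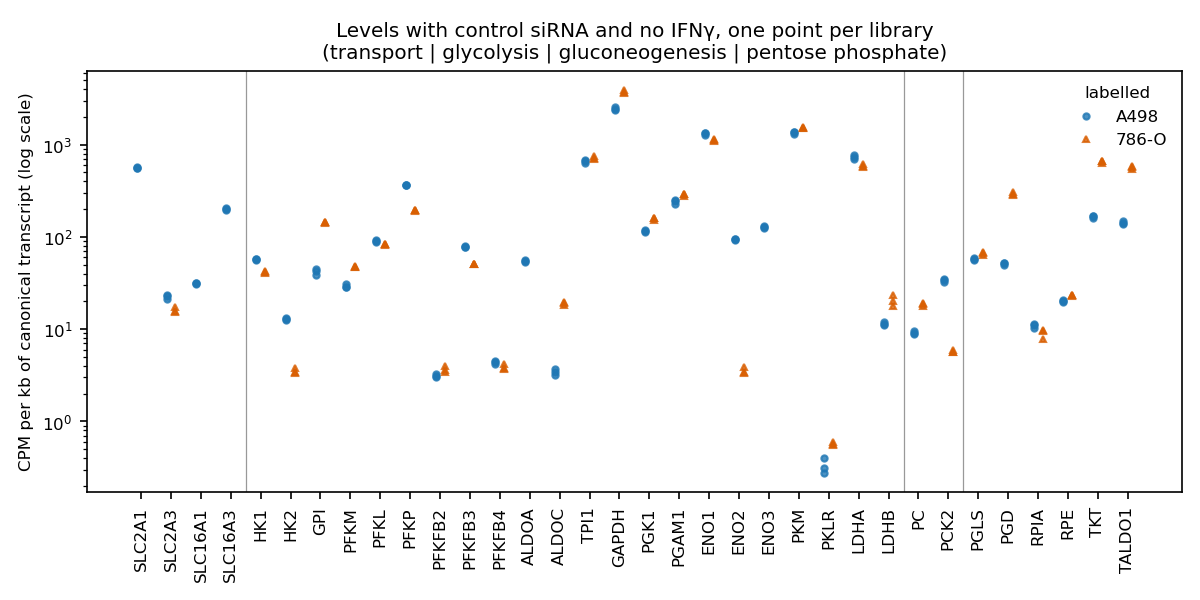
Levels with control siRNA and no IFNγ, as CPM per kb of the canonical transcript on a log axis, one point per library (circles A498, triangles 786-O, 3 libraries each), in the order carriers, glycolysis, gluconeogenesis and pentose phosphate genes. Among the members tested GAPDH is highest and PKLR lowest in both lines, and members with no triangle are not measured in 786-O.

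The first comparison asks how IFNγ acts on these genes in cells with the control siRNA. In A498, 6 of 34 members rose and 7 fell, where 18.2% of all genes rose and 18.5% fell. In 786-O, 2 of 29 rose and 4 fell, where the shares over all genes were 11.1% and 7.39%. The 6 called became 5 without replicate 1 of Cnsi IFNγ, 5 without replicate 3 of Cnsi and 7 without replicate 1 of PD-L1si, the libraries that stood apart. The A498 shares are near those of all genes. The hexokinase genes HK1 and HK2 rose in both lines, and ALDOC and PC fell in both, while SLC2A3 was called in opposite directions. The median log2 fold change of the members was -0.08 in A498 and -0.05 in 786-O, beside -0.03 and 0.00 over all genes. By the adjusted p-value alone 26 of 34 members passed in A498, beside 61.3% of all genes, and 20 of 29 in 786-O, beside 38.8%. Over a log2 fold change of 1 in size there were 5 in A498 and 0 in 786-O, beside 17.5% and 8.85%.

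Hexokinases phosphorylate glucose and so hold it in the cell. HK1 in A498 stood at 208, 208 and 203 CPM with Cnsi, 506, 482 and 499.7 with Cnsi IFNγ, 142, 139 and 137 with PD-L1si alone, and 303, 318 and 314 with PD-L1si IFNγ. The 786-O libraries had 148, 149.7 and 155 CPM with Cnsi, 206, 249 and 253 with Cnsi IFNγ, 91.7, 101 and 105 with PD-L1si alone, and 176, 193 and 181 with PD-L1si IFNγ. Within each siRNA, every library with IFNγ lay above every library without it in both lines. The log2 fold change of HK1 with Cnsi was 1.26 ± 0.04 (SE, adjusted p = 1.78e-25) in A498, a 2.40-fold level, and 0.65 ± 0.07 (SE, adjusted p = 7.49e-08) in 786-O. HK2, the hexokinase often high in tumours, stood in A498 at 71.4, 74.7 and 71.8 CPM with Cnsi, 161, 172 and 174 with Cnsi IFNγ, 65.2, 65.1 and 62.7 with PD-L1si alone, and 137, 151 and 133 with PD-L1si IFNγ. The 786-O libraries had 19.3, 19.0 and 21.6 CPM with Cnsi, 25.9, 33.1 and 29.4 with Cnsi IFNγ, 16.5, 17.0 and 14.9 with PD-L1si alone, and 26.4, 30.2 and 28.9 with PD-L1si IFNγ. The IFNγ libraries again lay above the others with either siRNA. Its log2 fold changes with Cnsi were 1.22 ± 0.05 (SE, adjusted p = 1.95e-22) and 0.56 ± 0.08 (SE, adjusted p = 4.17e-06). In 786-O the rise rests in part on replicate 2 of Cnsi IFNγ, without which the value was 0.47, short of the 0.5 threshold.

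Because HK2, ALDOC and PC were called in the same direction in both lines, their promoters are shown, from 250 bases before to 50 after a start in RefSeq (GRCh38.p14). RefSeq lists 2 starts for HK2, 1 for ALDOC and 3 for PC, and the start shown is that of the canonical transcript. HK1 was also called in the same direction in both lines, but the nearest of its 7 listed starts lay 217 bases from the canonical one, and that window is not shown. Capitals mark the letters ACGTG on either strand, the core of a hypoxia response element.
HK2, chr2:74833877-74834176, + strand: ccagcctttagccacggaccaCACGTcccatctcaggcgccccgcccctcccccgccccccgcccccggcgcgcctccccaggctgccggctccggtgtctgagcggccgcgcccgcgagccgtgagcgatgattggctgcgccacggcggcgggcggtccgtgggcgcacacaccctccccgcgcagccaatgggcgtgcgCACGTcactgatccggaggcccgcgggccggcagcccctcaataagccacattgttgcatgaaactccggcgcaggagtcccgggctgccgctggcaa
ALDOC, chr17:28576846-28577145, - strand: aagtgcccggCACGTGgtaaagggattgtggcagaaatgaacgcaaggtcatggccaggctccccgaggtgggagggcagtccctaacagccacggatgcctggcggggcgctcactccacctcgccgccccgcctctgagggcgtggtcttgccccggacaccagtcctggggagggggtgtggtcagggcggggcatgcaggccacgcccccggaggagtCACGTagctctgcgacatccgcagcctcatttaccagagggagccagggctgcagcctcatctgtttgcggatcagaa
PC, chr11:66958334-66958633, - strand: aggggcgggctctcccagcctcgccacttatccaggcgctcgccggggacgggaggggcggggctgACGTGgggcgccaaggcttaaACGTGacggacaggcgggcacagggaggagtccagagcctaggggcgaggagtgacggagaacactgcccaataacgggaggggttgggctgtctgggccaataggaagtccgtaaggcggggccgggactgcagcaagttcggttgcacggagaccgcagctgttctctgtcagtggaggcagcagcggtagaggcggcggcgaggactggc
ACGTG was found 2 times for HK2, 3 times for ALDOC, of which 2 overlap, and 2 times for PC, and 21.4% of all 35116 promoters of this length hold it. The HK1 window that is not shown holds it 0 times. TTCNNNGAA, the letters of a GAS element, and GAAANNGAA, the core of an interferon response element, were found 0 times on either strand in all 3, and are held by 7.66% and 8.11% of promoters. The counts per gene sum over all its starts, so that the start in use was not tested.

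The carriers differed from each other. SLC2A3 (chromosome 12, 7919230 to 8019007, - strand of GRCh38) encodes the high-affinity glucose transporter GLUT3, and in A498 stood at 80.7, 88.0 and 90.2 CPM with Cnsi, 286, 261 and 269 with Cnsi IFNγ, 64.1, 66.0 and 57.7 with PD-L1si alone, and 203, 223 and 207 with PD-L1si IFNγ. Its 786-O libraries held 60.2, 58.3 and 66.8 CPM with Cnsi, 28.1, 49.4 and 48.1 with Cnsi IFNγ, 58.1, 63.2 and 58.1 with PD-L1si alone, and 47.4, 48.5 and 50.5 with PD-L1si IFNγ. The IFNγ libraries were above the others in A498 and below them in 786-O. SLC2A3 rose with Cnsi in A498 by 1.66 ± 0.05 (SE, adjusted p = 2.76e-25) and fell in 786-O with a log2 fold change of -0.56 ± 0.18 (SE, adjusted p = 0.036). The call was lost without any of 8 of the 12 libraries. Without replicate 1 of Cnsi IFNγ, at 28.1 CPM beside 49.4 and 48.1, the value was -0.34 (adjusted p = 1.33e-05, edgeR), short of the fold threshold. Without replicate 1, 2 or 3 of Cnsi the adjusted p was 0.0719, 0.0583 or 0.0974, without replicate 3 of PD-L1si 0.0513, and without replicate 1, 2 or 3 of PD-L1si IFNγ 0.0506, 0.0508 or 0.0516, with log2 fold changes from -0.51 to -0.60. SLC16A3, which encodes the lactate exporter MCT4, stood in A498 at 531, 523 and 509 CPM with Cnsi, 797, 783 and 806 with Cnsi IFNγ, 377, 377 and 359.9 with PD-L1si alone, and 623, 551 and 559 with PD-L1si IFNγ. Its log2 fold change with Cnsi was 0.61 ± 0.04 (SE, adjusted p = 3.67e-15), and the IFNγ libraries lay above those without it. SLC2A1 stood at 1873, 1916 and 1897 CPM with Cnsi, 1984, 1897 and 1956 with Cnsi IFNγ, 1178, 1219.8 and 1139 with PD-L1si alone, and 1669.9, 1585 and 1562 with PD-L1si IFNγ. The Cnsi libraries with and without IFNγ overlapped, with a log2 fold change of 0.04 ± 0.04 (SE, adjusted p = 0.406). SLC16A1, which encodes MCT1, had 0.31 ± 0.05, under the fold threshold.

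**Figure D2:**
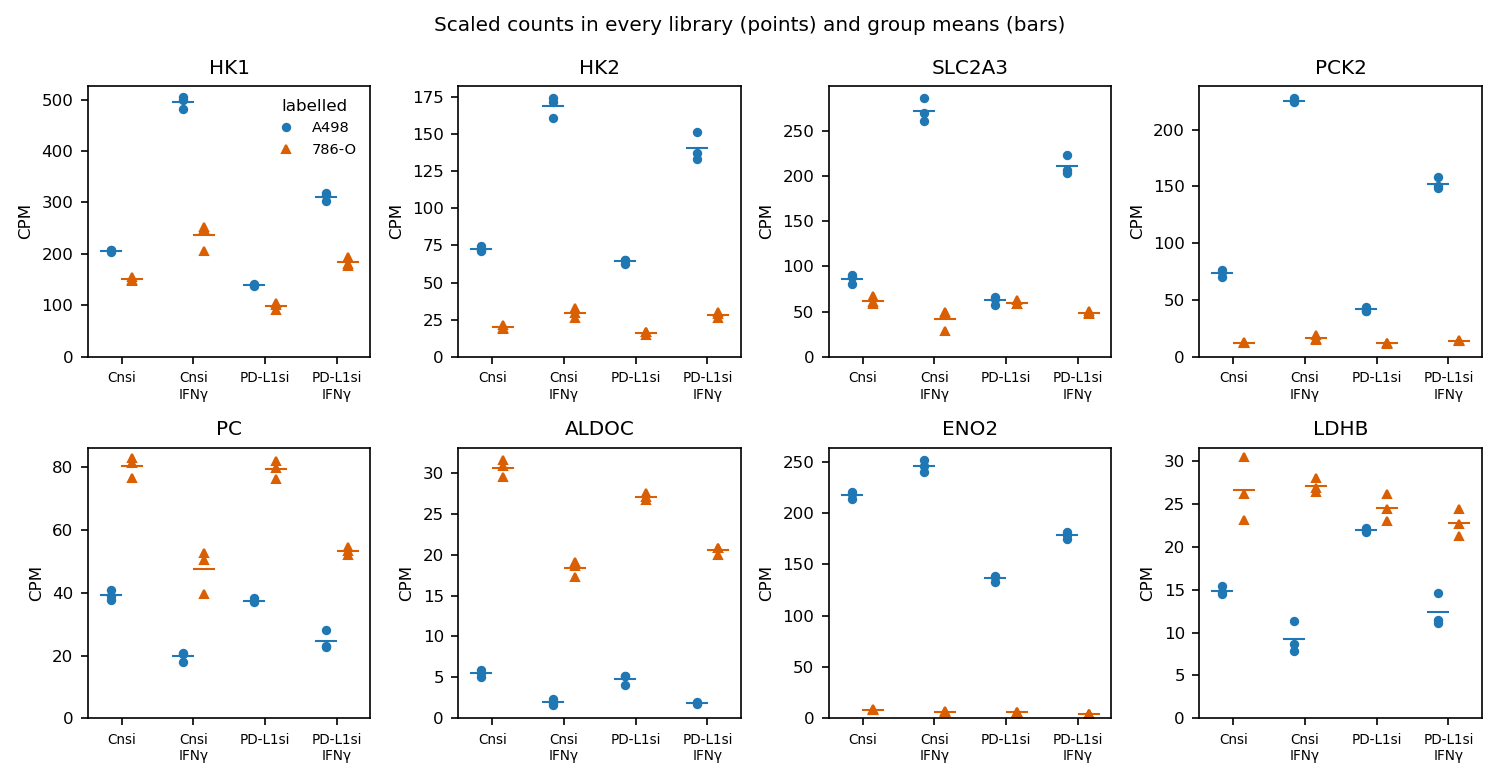
CPM in every library (points, 3 per group; circles A498, triangles 786-O) and group means (bars) for HK1, HK2, SLC2A3, PCK2, PC, ALDOC, ENO2 and LDHB, on axes from 0. HK1 and HK2 are higher and PC is lower with IFNγ in both lines, whereas SLC2A3 is higher with IFNγ among the A498 points and lower among those of 786-O, and replicate 1 of Cnsi IFNγ is the low SLC2A3 point of 786-O at 28.1 CPM.

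Further down glycolysis, 6 genes fell in A498. For PFKM, ALDOC and LDHB a more abundant gene of the same step was not called. With Cnsi and no IFNγ they stood at 29.3, 3.43 and 11.4 CPM per kb beside 365 for PFKP, 54.8 for ALDOA and 730.5 for LDHA. GPI, which turns glucose 6-phosphate into fructose 6-phosphate, stood in A498 at 183, 160.5 and 178 CPM with Cnsi, 93.3, 101 and 99.9 with Cnsi IFNγ, 152, 168 and 153 with PD-L1si alone, and 104, 96.0 and 102 with PD-L1si IFNγ. It fell with a log2 fold change of -0.83 ± 0.05 (SE, adjusted p = 1.14e-16), with no overlap between IFNγ and other libraries, and in 786-O the value was -0.10 ± 0.04 (SE, adjusted p = 0.0619). PFKM, the muscle phosphofructokinase subunit, stood in A498 at 94.3, 88.0 and 89.6 CPM with Cnsi, 52.6, 59.6 and 53.9 with Cnsi IFNγ, 91.6, 97.1 and 95.6 with PD-L1si alone, and 67.3, 69.6 and 65.7 with PD-L1si IFNγ. It fell with a log2 fold change of -0.71 ± 0.05 (SE, adjusted p = 3.74e-15) with Cnsi, with every IFNγ library below those without. The subunits PFKL and PFKP were not called in either line. PGAM1, the phosphoglycerate mutase, stood in A498 at 449, 436 and 406 CPM with Cnsi, 281, 295 and 276 with Cnsi IFNγ, 365, 395 and 381 with PD-L1si alone, and 274, 245 and 262 with PD-L1si IFNγ. Its log2 fold change of -0.60 ± 0.04 (SE, adjusted p = 4.17e-14) separated the IFNγ libraries from the others. ENO3 stood in A498 at 190.2, 183 and 185 CPM with Cnsi, 280.5, 265 and 267 with Cnsi IFNγ, 139, 133 and 132 with PD-L1si alone, and 204, 192 and 194 with PD-L1si IFNγ. Every IFNγ library was above every library without it, and ENO3 rose with Cnsi by 0.54 ± 0.04 (SE, adjusted p = 3.87e-14). PFN1, whose reads it may hold, had 0.44 ± 0.05 (SE, adjusted p = 1.29e-09) in the same comparison.

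The PFKFB enzymes make and remove fructose 2,6-bisphosphate, the activator of phosphofructokinase. PFKFB3, mainly a kinase, stood in A498 at 350.1, 346 and 355 CPM with Cnsi, 203, 206 and 207 with Cnsi IFNγ, 274, 271 and 277 with PD-L1si alone, and 177, 174 and 174 with PD-L1si IFNγ. PFKFB3 in 786-O stood at 225, 228 and 229 CPM with Cnsi, 160.3, 163 and 161 with Cnsi IFNγ, 232, 230.0 and 238 with PD-L1si alone, and 183, 189 and 176 with PD-L1si IFNγ. Every IFNγ library was below every other library with the same siRNA in both lines. PFKFB3 fell in A498 with a log2 fold change of -0.77 ± 0.04 (SE, adjusted p = 1.87e-19), and the 786-O value of -0.49 ± 0.04 (SE, adjusted p = 6.51e-10) was just short of the fold threshold. PFKFB3 in 786-O passed that threshold in 5 other settings, at -0.50 with DESeq2 and with relative log expression, -0.51 with no filter on counts and with protein-coding genes only, and -0.52 with only the groups compared. It also passed without replicate 1 of Cnsi (-0.50) or replicate 1 of PD-L1si (-0.52). PFKFB4, a hypoxia-responsive member, was low in both lines. In A498 it stood at 14.6, 15.3 and 15.7 CPM with Cnsi, 12.5, 13.8 and 15.3 with Cnsi IFNγ, 13.8, 13.9 and 14.6 with PD-L1si alone, and 12.7, 12.4 and 12.5 with PD-L1si IFNγ. PFKFB4 in 786-O stood at 12.9, 14.7 and 13.2 CPM with Cnsi, 7.92, 8.10 and 8.55 with Cnsi IFNγ, 11.3, 10.4 and 11.6 with PD-L1si alone, and 8.63, 7.24 and 7.29 with PD-L1si IFNγ. The 786-O libraries did not overlap between IFNγ and none, with a log2 fold change of -0.73 ± 0.09 (SE, adjusted p = 2.50e-07), whereas A498 had -0.14 ± 0.07 (SE, adjusted p = 0.102). PFKFB2 was not called in either line.

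ALDOC, the brain aldolase, stood in A498 at 5.50, 5.09 and 5.94 CPM with Cnsi, 1.63, 1.86 and 2.36 with Cnsi IFNγ, 5.14, 5.14 and 4.06 with PD-L1si alone, and 1.88, 1.79 and 1.94 with PD-L1si IFNγ. ALDOC in 786-O stood at 31.6, 29.5 and 30.8 CPM with Cnsi, 17.3, 18.6 and 19.2 with Cnsi IFNγ, 27.1, 27.5 and 26.6 with PD-L1si alone, and 20.9, 20.9 and 20.0 with PD-L1si IFNγ. The IFNγ libraries were the lowest in both lines. The log2 fold changes with Cnsi were -1.51 ± 0.15 (SE, adjusted p = 2.21e-11) and -0.74 ± 0.06 (SE, adjusted p = 2.66e-10). LDHB, the lactate dehydrogenase subunit of heart, stood in A498 at 14.7, 15.4 and 14.5 CPM with Cnsi, 7.80, 11.3 and 8.61 with Cnsi IFNγ, 22.2, 22.0 and 21.7 with PD-L1si alone, and 11.4, 14.6 and 11.1 with PD-L1si IFNγ. LDHB in 786-O stood at 23.2, 26.2 and 30.5 CPM with Cnsi, 28.1, 26.3 and 26.9 with Cnsi IFNγ, 24.4, 26.2 and 23.0 with PD-L1si alone, and 21.2, 24.4 and 22.6 with PD-L1si IFNγ. LDHB fell in A498 with a log2 fold change of -0.68 ± 0.10 (SE, adjusted p = 7.53e-07), and its 786-O libraries with and without IFNγ overlapped (0.03 ± 0.08). Its partner LDHA was not called, with -0.20 ± 0.04 and -0.28 ± 0.05 in A498 and 786-O.

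The 2 tested members of gluconeogenesis went apart. PCK2 (chromosome 14, 24094053 to 24110598, + strand of GRCh38) encodes the mitochondrial phosphoenolpyruvate carboxykinase, and in A498 stood at 69.9, 76.8 and 74.8 CPM with Cnsi, 225, 224 and 228 with Cnsi IFNγ, 40.6, 44.1 and 40.3 with PD-L1si alone, and 158, 151 and 149 with PD-L1si IFNγ. Its 786-O libraries held 12.4, 12.2 and 12.9 CPM with Cnsi, 19.0, 15.1 and 16.0 with Cnsi IFNγ, 11.2, 12.2 and 11.8 with PD-L1si alone, and 14.2, 14.2 and 14.5 with PD-L1si IFNγ. In A498 the IFNγ libraries stood far above the others, with a log2 fold change of 1.61 ± 0.04 (SE, adjusted p = 8.71e-27) or 3.06-fold. In 786-O the value was 0.42 ± 0.08 (SE, adjusted p = 1.72e-04), under the fold threshold. PC encodes pyruvate carboxylase, which makes oxaloacetate from pyruvate. In A498 it stood at 40.8, 37.8 and 38.8 CPM with Cnsi, 18.0, 20.9 and 20.6 with Cnsi IFNγ, 38.2, 37.0 and 37.4 with PD-L1si alone, and 28.3, 22.8 and 22.9 with PD-L1si IFNγ. In 786-O it stood at 83.0, 76.7 and 81.4 CPM with Cnsi, 39.7, 50.6 and 52.6 with Cnsi IFNγ, 76.3, 79.7 and 81.9 with PD-L1si alone, and 53.2, 54.6 and 52.1 with PD-L1si IFNγ. Every IFNγ library was below every library without it, and PC fell with a log2 fold change of -0.98 ± 0.07 (SE, adjusted p = 5.67e-15) in A498 and -0.76 ± 0.07 (SE, adjusted p = 3.33e-08) in 786-O.

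In the pentose phosphate branch 0 of 6 genes were called in either line by edgeR or by DESeq2, and 4 of 6 had an unadjusted p under 0.05 in each line, beside 64.3% of all genes in A498 and 45.7% in 786-O. The log2 fold changes with Cnsi ran from -0.24 for TKT to 0.21 for PGLS in A498, and from -0.16 for TKT to 0.33 for RPE in 786-O. TKT is the transketolase of the non-oxidative arm, PGLS the lactonase of the oxidative arm, and RPE an epimerase whose exons overlap KANSL1L on the other strand. For comparison, glycolysis ran from -1.51 for ALDOC to 1.26 for HK1 in A498. Across the comparisons within a line, the interaction included, 17 of the 34 members were called at least once and 17 never, a share near that of all genes, of which 50.9% were called at least once (55% of those tested in both lines). The members never called were the 6 pentose phosphate genes, SLC16A1, and PFKL, PFKP, PFKFB2, TPI1, GAPDH, PGK1, ENO1, PKM, PKLR and LDHA of glycolysis.

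**Figure D3:**
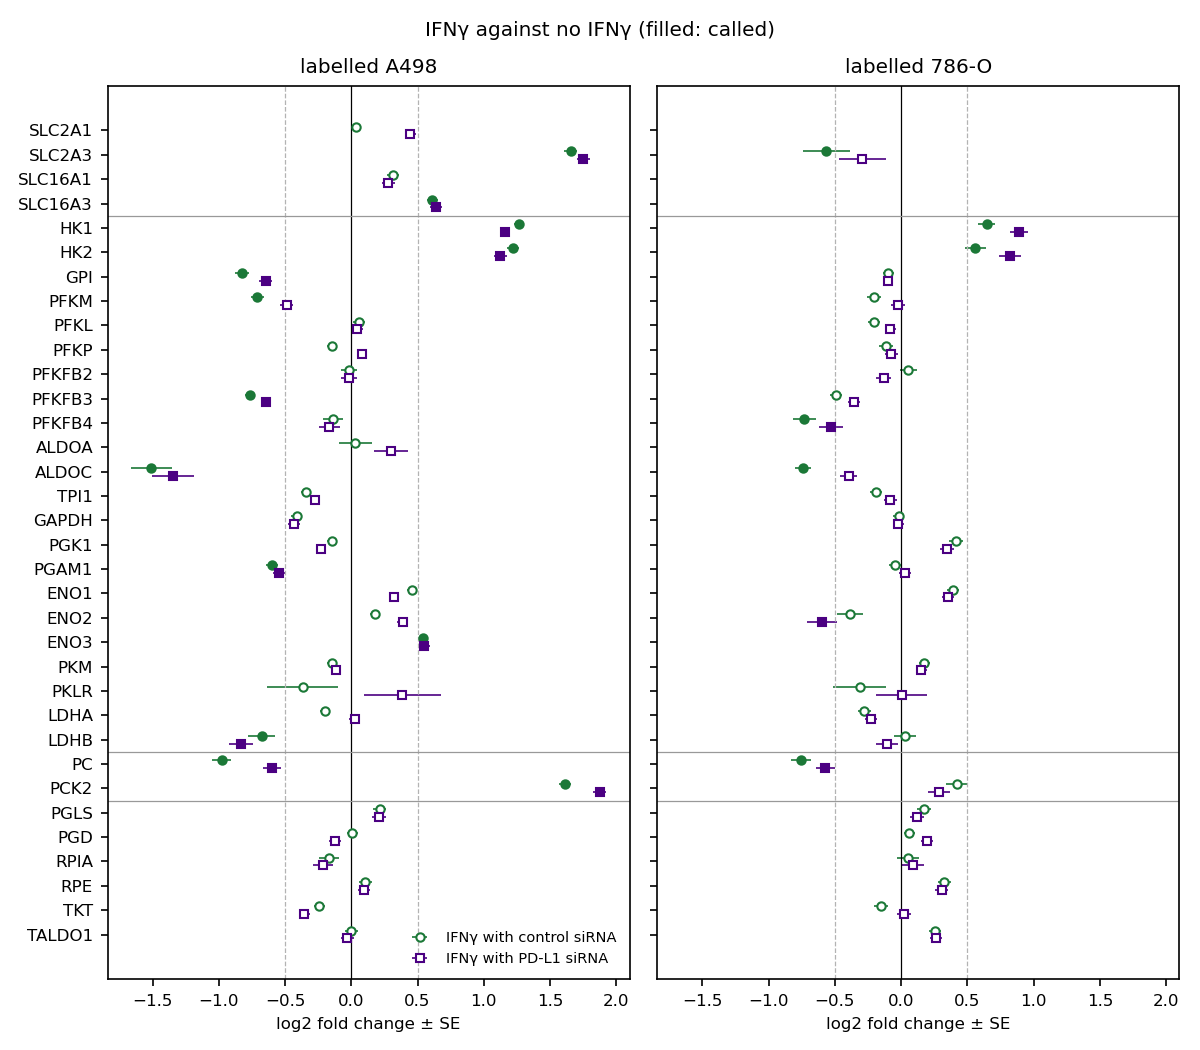
Log2 fold change with IFNγ ± SE for each tested member in A498 (left) and 786-O (right) on the same axis, with control siRNA (circles) and PD-L1 siRNA (squares), filled where called, dashed lines at the 0.5 threshold. In A498 SLC2A3 and PCK2 lie beyond 1.5 with both siRNAs, and the 6 pentose phosphate genes stay within the dashed lines in both panels.

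The same question was put to cells with PD-L1 siRNA. In A498, 6 of 34 members rose and 6 fell with IFNγ, beside 17.6% and 15.9% of all genes. In 786-O, 2 of 29 rose and 3 fell, beside 11% and 7.45%. HK1 and HK2 rose and PC fell in both lines. The median of the members was 0.00 in A498 and -0.02 in 786-O, with medians over all genes of -0.02 and 0.00. By the adjusted p-value alone 25 of 34 members passed in A498, beside 58.5% of all genes, and 15 of 29 in 786-O, beside 38.5%. Over a log2 fold change of 1 in size there were 5 and 0, beside 15.3% and 8.73%. The comparisons of IFNγ with each siRNA use different libraries, while each shares its libraries with the siRNA comparisons.

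HK1 had a log2 fold change of 1.16 ± 0.04 (SE, adjusted p = 4.97e-24) in A498 and 0.89 ± 0.07 (SE, adjusted p = 6.84e-10) in 786-O, and HK2 of 1.13 ± 0.05 (SE, adjusted p = 3.84e-21) and 0.82 ± 0.08 (SE, adjusted p = 1.25e-08). PC fell with a log2 fold change of -0.60 ± 0.07 (SE, adjusted p = 1.08e-09) and -0.57 ± 0.07 (SE, adjusted p = 1.55e-06). The carriers SLC2A3 and SLC16A3 rose in A498, by 1.75 ± 0.05 (SE, adjusted p = 1.35e-25) and 0.64 ± 0.04 (SE, adjusted p = 1.52e-15). In 786-O, SLC2A3 had -0.29 ± 0.18 (SE, adjusted p = 0.241) and was not called. PCK2 had the largest value of the 34 members, 1.87 ± 0.05 (SE, adjusted p = 5.48e-28), a 3.67-fold level, and in 786-O 0.29 ± 0.08 (SE, adjusted p = 0.0077).

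GPI, PFKFB3, ALDOC, PGAM1 and LDHB fell in A498, with log2 fold changes of -0.65 ± 0.05, -0.64 ± 0.04, -1.35 ± 0.16, -0.55 ± 0.05 and -0.83 ± 0.09 (± SE, highest adjusted p = 2.98e-09, edgeR). ENO3 had 0.55 ± 0.04 and PFN1 0.46 ± 0.05. PFKM was at -0.49 ± 0.05 (SE, adjusted p = 5.17e-11), just under the fold threshold. In 786-O the genes that fell were PFKFB4, PC and ENO2, the neuronal enolase. PFKFB4 fell with a log2 fold change of -0.53 ± 0.09 (SE, adjusted p = 3.95e-05), and without replicate 2 or 3 of PD-L1si IFNγ the value was -0.48 or -0.49, short of the threshold. ENO2 in 786-O stood at 8.89, 7.65 and 7.85 CPM with Cnsi, 5.77, 6.88 and 6.03 with Cnsi IFNγ, 6.21, 5.57 and 6.00 with PD-L1si alone, and 3.84, 3.83 and 4.08 with PD-L1si IFNγ. Its PD-L1si IFNγ libraries were the lowest of all, with a log2 fold change of -0.60 ± 0.11 (SE, adjusted p = 1.02e-04), whereas in A498 the value was 0.39 ± 0.04 (SE, adjusted p = 1.40e-10). Of the pentose phosphate genes 0 of 6 were called in either line by edgeR or DESeq2, with 5 of 6 in A498 and 4 of 6 in 786-O at an unadjusted p under 0.05, beside 61.8% and 45.6% of all genes. Their values ran from -0.36 for TKT to 0.21 for PGLS in A498 and from 0.02 for TKT to 0.31 for RPE in 786-O.

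The siRNA against PD-L1 was then compared with the control siRNA in cells without IFNγ. In A498, 1 of 34 members rose and 5 fell, beside 2.87% and 5.6% of all genes. In 786-O, 0 of 29 rose and 1 fell, beside 1.19% and 1.63%, with 0 rising by DESeq2 as well and 2 higher at an unadjusted p under 0.05, beside 10.7% of all genes. Without replicate 2 of Cnsi the 1 called in 786-O became 2, as ENO2 reached -0.50 (adjusted p = 0.0047, edgeR). Over a log2 fold change of 1 in size 0 members were called in either line, beside 2.64% and 0.684%. The members that fell in A498 were SLC2A1, HK1, ALDOA, ENO2 and PCK2, and LDHB rose. HK1 fell in both lines.

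Most members of A498 were slightly lower. By the adjusted p-value alone 23 of 34 were lower and 2 higher with PD-L1si, beside 18.1% lower and 12.8% higher over all genes. Their median log2 fold change was -0.21 and that of all genes near 0, and scaling by relative log expression gave a median of -0.20 with 23 lower and 2 higher. By branch, 4 of 4 carriers, 16 of 22 glycolysis genes, 1 of 2 of gluconeogenesis and 2 of 6 pentose phosphate genes were lower, and the genes higher were PFKFB2 and LDHB of glycolysis. The branch medians were -0.48 for the carriers, -0.21 for glycolysis and -0.01 for the pentose phosphate genes. Of the 53 other pathway genes tested in A498, 10 were lower and 11 higher by the adjusted p-value alone, with a median of -0.03. In 786-O, 6 of 29 members were lower and 2 higher, beside 8.04% and 4.79% of all genes, with a median of -0.04.

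SLC2A1, at 1873 to 1916 CPM in the Cnsi libraries and 1139 to 1219.8 with PD-L1si, had a log2 fold change of -0.69 ± 0.04 (SE, adjusted p = 1.38e-16). HK1 had -0.57 ± 0.04 (SE, adjusted p = 4.72e-14) in A498 and -0.61 ± 0.07 (SE, adjusted p = 2.10e-06) in 786-O, and no PD-L1si library of either line reached a Cnsi library. PCK2 had the largest fall, -0.83 ± 0.05 (SE, adjusted p = 4.80e-16), against -0.09 ± 0.08 (SE, adjusted p = 0.564) in 786-O. ENO2 in A498 stood at 220.0, 214 and 218 CPM with Cnsi, 239.8, 246 and 251 with Cnsi IFNγ, 133, 139 and 137 with PD-L1si alone, and 175, 181 and 179 with PD-L1si IFNγ. It fell with a log2 fold change of -0.67 ± 0.04 (SE, adjusted p = 4.24e-16), with the PD-L1si libraries below all others, and in 786-O the value was -0.46 ± 0.10 (SE, adjusted p = 0.00245), under the fold threshold. LDHB rose in A498 by 0.56 ± 0.09 (SE, adjusted p = 4.75e-06), where the 3 PD-L1si libraries lay between 21.7 and 22.2 CPM and the highest Cnsi library at 15.4. In 786-O its value was -0.12 ± 0.08 (SE, adjusted p = 0.411).

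ALDOA, the main aldolase of most tissues, was measured in A498 alone and stood at 87.6, 90.7 and 91.4 CPM with Cnsi, 98.0, 79.4 and 98.1 with Cnsi IFNγ, 63.5, 68.2 and 58.8 with PD-L1si alone, and 90.5, 63.7 and 78.7 with PD-L1si IFNγ. The spread under IFNγ was wide. Its log2 fold change was -0.50 ± 0.13 (SE, adjusted p = 0.0148), just past the threshold, and with DESeq2 it was -0.49. It dropped below the fold threshold in 6 of the other settings and without any of 8 libraries, with values from -0.43 to -0.50. The count also shares exon bases with a second gene on the same strand. PFKFB2 had the largest positive value in 786-O, 0.33 ± 0.06 (SE, adjusted p = 3.44e-04), and 0.40 ± 0.06 (SE, adjusted p = 1.04e-06) in A498, both under the fold threshold. In the pentose phosphate branch 0 of 6 genes were called by edgeR or DESeq2 in either line, with 2 of 6 in A498 and 1 of 6 in 786-O at an unadjusted p under 0.05, beside 39.2% and 24.7% of all genes. TALDO1, the transaldolase, was lowest in A498 with -0.35 ± 0.05 (SE, adjusted p = 2.64e-07), and PGD, the second dehydrogenase of the oxidative arm, in 786-O with -0.17 ± 0.05 (SE, adjusted p = 0.0124).

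**Figure D4:**
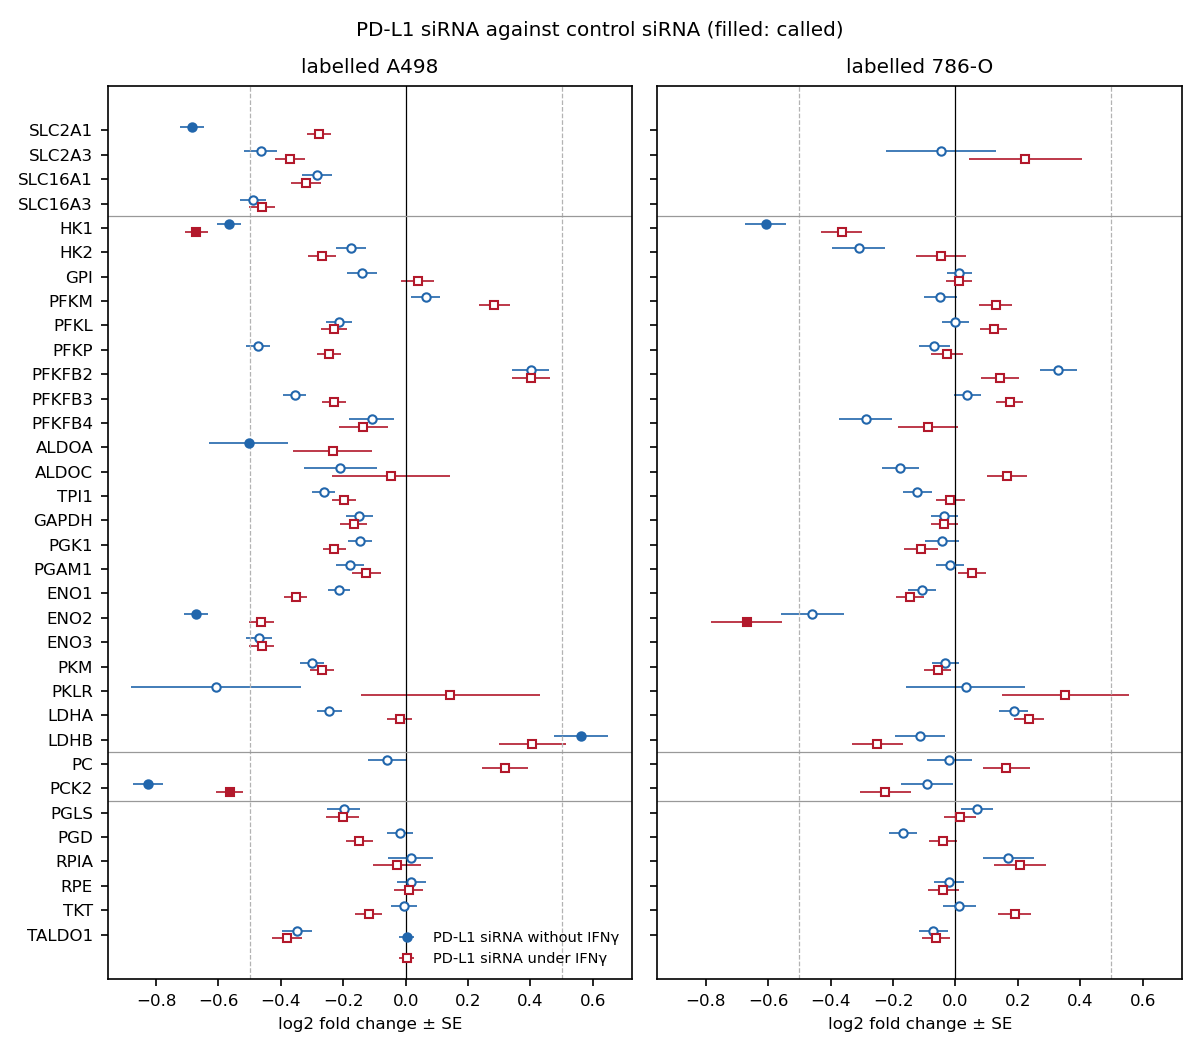
Log2 fold change with PD-L1 siRNA ± SE for each tested member in A498 (left) and 786-O (right) on the same axis, without IFNγ (circles) and under IFNγ (squares), filled where called, dashed lines at the 0.5 threshold. Without IFNγ 29 of 34 values in A498 and 21 of 29 in 786-O lie below 0, and HK1 is filled in both panels.

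Under IFNγ, 0 of 34 members rose and 2 fell in A498 with PD-L1si, beside 4.36% and 5.75% of all genes. In 786-O, 0 of 29 rose and 1 fell, beside 1.29% and 1.74%. DESeq2 gave 0 rises in both lines as well, and 4 members in A498 and 9 in 786-O were higher at an unadjusted p under 0.05, beside 20.4% and 12.1% of all genes. Over a log2 fold change of 1 in size the members called were 0 in both lines, beside 2.87% and 0.769%. HK1 and PCK2 fell in A498, with log2 fold changes of -0.67 ± 0.04 (SE, adjusted p = 2.59e-16) and -0.56 ± 0.04 (SE, adjusted p = 4.31e-13), and ENO2 in 786-O, with -0.67 ± 0.11 (SE, adjusted p = 1.56e-04). By the adjusted p-value alone, 22 of 34 members in A498 were lower and 4 higher, beside 17.8% and 16.2% of all genes, and 4 of 29 in 786-O were lower and 3 higher, beside 8.06% and 5.96%. The median was -0.22 in A498 and -0.02 in 786-O.

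Whether the response to IFNγ depended on the siRNA was tested as an interaction, positive where the log2 IFNγ effect is more positive with PD-L1si. By edgeR 0 of 34 members were called in A498 and 0 of 29 in 786-O, beside 2.45% and 0.099% of all genes. DESeq2 also called 0 in both, and at an unadjusted p under 0.05 there were 11 of 34 in A498 and 7 of 29 in 786-O, beside 21.4% and 8.12% of all genes. By the adjusted p-value alone 7 members in A498 were positive, beside 6.34% of all genes, and in 786-O 0, beside 0.113%. In A498 the members positive and negative by that measure were 6 and 1 with DESeq2 and with relative log expression, 7 and 1 with filterByExpr, and 6 and 0 with no filter. The 7 were SLC2A1, PFKM, PFKP, ENO2, LDHA, PC and PCK2. SLC2A1 had the largest of these, 0.41 ± 0.05 (SE, adjusted p = 1.51e-06), from a log2 IFNγ effect of 0.04 ± 0.04 with Cnsi and 0.45 ± 0.04 with PD-L1si. PC followed with 0.38 ± 0.10 (SE, adjusted p = 0.00772). HK1 had an interaction of -0.10 ± 0.05 (SE, adjusted p = 0.27) in A498 and 0.24 ± 0.09 (SE, adjusted p = 0.478) in 786-O. A dependence of its rise on the siRNA was thus not detected in these libraries.

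Differences between the lines were tested over 17999 genes in a model of all 24 libraries, as the effect in 786-O minus that in A498. Of the 29 members tested, 11 differed for IFNγ with Cnsi, 8 for IFNγ with PD-L1si and 2 for the siRNA without IFNγ, beside 28.4%, 25.9% and 4.48% of all genes. By the adjusted p-value alone 19, 23 and 9 differed, beside 46.8%, 44.1% and 12.1% of all genes, and over a difference of 1 in size 2, 2 and 0, beside 11.9%, 10.7% and 1.46%. The largest differences were those of SLC2A3, -2.23 ± 0.18 (SE, adjusted p = 1.63e-08) for IFNγ with Cnsi and -2.05 ± 0.19 (SE, adjusted p = 5.94e-08) with PD-L1si, followed by PCK2 with -1.59 ± 0.09 (SE, adjusted p = 3.38e-18) for IFNγ with PD-L1si. HK1 and HK2, which rose in both lines, differed with Cnsi by -0.63 ± 0.08 (SE, adjusted p = 5.06e-09) and -0.66 ± 0.09 (SE, adjusted p = 1.27e-07), and ALDOC, which fell in both, by 0.76 ± 0.15 (SE, adjusted p = 3.41e-05). With PD-L1si the differences were -0.27 ± 0.08 (SE, adjusted p = 0.00349) for HK1 and -0.30 ± 0.09 (SE, adjusted p = 0.00787) for HK2, both under the 0.5 threshold, and 0.95 ± 0.16 (SE, adjusted p = 1.94e-06) for ALDOC. The IFNγ fall of PC did not pass the test of a difference, with 0.22 ± 0.11 (SE, adjusted p = 0.114) with Cnsi and 0.02 ± 0.11 (SE, adjusted p = 0.885) with PD-L1si. For the siRNA effect without IFNγ, LDHB and PCK2 differed.

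The other genes of these pathways were a list of 60, of which 53 were tested in A498 and 47 in 786-O. With Cnsi and IFNγ, 7 rose and 12 fell in A498, beside 18.2% and 18.5% of all genes, and 8 rose and 3 fell in 786-O, beside 11.1% and 7.39%, with medians of -0.26 and 0.02. For IFNγ in PD-L1si cells, 9 rose and 12 fell in A498, beside 17.6% and 15.9% of all genes, and 6 rose and 3 fell in 786-O, beside 11% and 7.45%. PDP1, a phosphatase that activates pyruvate dehydrogenase, and BPGM, which makes 2,3-bisphosphoglycerate, rose with both siRNAs in both lines. BPGM with Cnsi had a log2 fold change of 0.50 ± 0.06 (SE, adjusted p = 1.59e-09) in A498 and 1.91 ± 0.06 (SE, adjusted p = 8.45e-19) in 786-O, where its libraries went from 19.8 to 20.2 CPM up to 69.3 to 80.8. The A498 value of BPGM was only just past the fold threshold. PDP1 had 1.25 ± 0.05 (SE, adjusted p = 2.19e-22) and 1.01 ± 0.06 (SE, adjusted p = 7.56e-13).

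HKDC1, a hexokinase relative next to HK1 on chromosome 10, rose in A498 by 1.66 ± 0.04 (SE, adjusted p = 2.19e-29) with Cnsi, from 183 to 191 CPM without IFNγ to 591 to 597 with it, and had 0.12 ± 0.04 (SE, adjusted p = 0.0364) in 786-O. Without IFNγ, PD-L1 siRNA lowered it in A498, with -0.79 ± 0.04 (SE, adjusted p = 3.65e-18). For the siRNA effect without IFNγ, 3 of the other genes rose and 3 fell in A498, beside 2.87% and 5.6% of all genes, and 2 fell in 786-O, beside 1.63%. SLC16A7, which encodes the monocarboxylate carrier MCT2, fell in both lines. Its log2 fold changes were -0.63 ± 0.06 (SE, adjusted p = 2.35e-11) in A498 and -0.89 ± 0.08 (SE, adjusted p = 4.88e-08) in 786-O. The mean of SLC2A6 in A498 went from 67.2 CPM with Cnsi to 30.3 with PD-L1si alone. Others of the list went up in A498, SLC2A5 from 1.43 to 3.40 CPM and MPC1 from 6.32 to 10.3.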

How the data were processed

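The deposited values are raw counts per gene, made by the authors with Trimmomatic 0.36.6, HISAT2 2.1.0 on GRCh38 and featureCounts 1.6.3 on GENCODE 33. Symbols, transcript lengths and overlaps came from GENCODE 44 on the same build, which matched 39148 of 39321 identifiers. Genes with at least 10 counts summed over the libraries of a group were tested in R 4.3.3 with edgeR 4.0.16 (TMM, robust quasi-likelihood F-test with one mean per group, 12 libraries per line, Benjamini-Hochberg adjustment). SEs were computed from the fitted model. Depth and 3 libraries per group set the precision that the SEs state. Replicates differed beyond sampling noise in all 24 pairs (chi-square per degree of freedom 1.63 to 24.3). The members and lists were chosen with earlier results of these data known. Values per library are given for members called in any of the 4 comparisons. Alternatives were DESeq2 1.42.0, other scaling, filters, thresholds and models, a replicate block, and omission of each library. Promoters were matched by symbol for 32 of 36 members.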

Additional observations from a re-analysis of the deposited data

Results flagged for a closer look

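The members below differed between the lines in the same comparison, by the test of the difference itself in the model of all 24 libraries (edgeR, adjusted p under 0.05 and a log2 difference over 0.5 in size). Each value is the log2 fold change in libraries labelled 786-O minus that in libraries labelled A498. The part that line, instrument or label plays in them cannot be told apart.

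For IFNγ with control siRNA, 6 members were more negative in 786-O. SLC2A3 had -2.23 and PCK2 -1.20, HK2 had -0.66 and HK1 -0.63, and PFKFB4 had -0.60 and ENO2 -0.57. SLC2A3 was the only member called in opposite directions in the lines, and its call in 786-O was lost without any of 8 of the 12 libraries and under 2 other settings. The 5 that were more positive were ALDOC with 0.76, GPI with 0.72, LDHB with 0.70, PGK1 with 0.56 and PGAM1 with 0.55. Of these, PGK1 and ENO2 were not called in either line by themselves with control siRNA.

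For IFNγ with PD-L1 siRNA, SLC2A3 had -2.05, PCK2 -1.59 and ENO2 -0.99. ALDOC had 0.95, LDHB 0.72, PGK1 0.58, PGAM1 0.57 and GPI 0.54. The gene antisense to ALDOC had 8 to 47 counts per A498 library, and reads of both strands could not be told apart there.

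For PD-L1 siRNA without IFNγ, LDHB had -0.67 and PCK2 0.74. LDHB rose and PCK2 fell in A498, and neither was called in 786-O.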

How the results depend on the processing

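Of the 46 called fold changes, 0 turned direction in 368 recomputations under other settings and 552 without a library. The call was lost 8 times under other settings and 19 times without a library, for ALDOA, SLC2A3 in 786-O, HK2 in 786-O with control siRNA and PFKFB4 with PD-L1 siRNA. SLC2A3 was not called with no filter on counts (adjusted p = 0.0549, edgeR) or with only the groups compared (adjusted p = 0.119), where its log2 fold change was -0.59 in both, beside -0.56, so that the p-value alone moved past its threshold. PKLR had only 14 to 31 counts per A498 library, and whether depth limits such members was not tested. Counts of 0 in 786-O cannot be read as absence.

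The counts moved by over 1.5 times with the threshold on the fold change. By adjusted p alone, the members called with IFNγ were 26 with control and 25 with PD-L1 siRNA in A498, and 20 and 15 in 786-O. With PD-L1 siRNA they were 25 without and 26 under IFNγ in A498 and 8 and 7 in 786-O, and the A498 interaction gave 7. The differences between the lines gave 19, 23 and 9. Over a log2 fold change of 1 the IFNγ counts were 5 and 5 in A498 and 0 and 0 in 786-O, the siRNA counts 0 in each line, and the line differences 2, 2 and 0. These changes follow from the threshold itself. Within a line, DESeq2, relative log expression, other filters, protein-coding genes only and the newer fit kept each count within 1.5 times, as did only the groups compared, which was not run for the interaction. The line differences were recomputed with DESeq2, relative log expression and the block besides the thresholds, and these kept each within 1.5 times.

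Leaving out each library gave 13 to 13 and 12 to 13 members with IFNγ in A498 (control and PD-L1 siRNA), 5 to 7 and 2 to 3 for the siRNA without and under IFNγ, and 0 to 0 for the interaction. In 786-O the ranges were 5 to 7, 4 to 5, 1 to 2, 1 to 1 and 0 to 0. The 2 arises without replicate 2 of Cnsi, where ENO2 reached -0.50. Gains in A498 were PFKM, GAPDH, SLC2A3, PKLR, SLC16A3 and LDHB, and in 786-O PFKFB3.

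The labels do not say that equal replicate numbers are paired. With the replicate number as a block, members called were 13, 12, 6, 2 and 0 in A498 and 6, 5, 1, 1 and 0 in 786-O, in the order above, and 11, 8 and 2 for the line differences. Deviations of same-numbered libraries correlated by 0.0496 and 0.056 on average, with 3 and 8 of 18 pairs over 0.1, and 6 and 7 of 12 libraries correlated best with their own number.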
